A study of Mus musculus with 7 samples.

Results

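The genes of antigen presentation by major histocompatibility complex (MHC) class II were examined in CD11b+CD45low microglia, the resident macrophages of the brain. Of the 7 libraries, 3 held microglia sorted from WT grafts and 4 held microglia of nearby cortex, here called inside and outside. All hosts were 5xFAD mice, which deposit amyloid because the neuron-specific Thy1 promoter drives their human APP and PS1 transgenes, so the libraries from outside the graft are no healthy control. The strain was C57BL/6, the mice were female, the age was 14 weeks, and tissue was taken 4 weeks after embryonic cortical neurons of wild-type (WT) mice had been injected. The sources used here do not say how many mice went into a library, or whether an inside and an outside library came from the same brain, so P values measure only the spread between these libraries, which may be technical. The 9 members, H2-Aa, H2-Ab1, H2-Eb1, Cd74, Ciita, H2-DMa, H2-DMb1, H2-DMb2 and H2-Oa, were taken by name from the 55341 gene names of the count table. All 9 passed the filter on low counts, as did 15257 genes in all.

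MHC class II molecules are pairs of an alpha and a beta chain that carry peptides from the endosome to the cell surface, where CD4+ T cells read them. The invariant chain Cd74 escorts the new pair to the endosome and blocks its groove, cathepsins cut Cd74 down to a short peptide, H2-DM exchanges that peptide for others, and H2-DO restrains H2-DM. Ciita is the co-activator that switches these genes on at promoters bound by RFX, CREB and NF-Y, and interferon-gamma is the classic inducer of Ciita in macrophages and microglia, which carry little class II in the healthy brain.

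Each library held 18644807 to 25882122 counted reads. Microglial genes were abundant in all libraries, with 8 of 8 fixed markers tested, 0 called by either test and a summed level of 33976 to 39793 CPM (read counts scaled to the library size, with TMM factors) inside and 39787 to 42823 CPM outside. All 8 had a negative edgeR log2 fold change and 4 had an unadjusted P below 0.05 in each test, with a median log2 fold change of −0.17. Genes of other blood cells differed between libraries of the same sort. The 7 neutrophil genes summed to 3739, 387 and 8163 CPM in inside grafts 1, 2 and 3 and to 0.267, 0.311, 171 and 18.0 CPM in outside grafts 1 to 4. The 10 monocyte genes summed to 666, 79.8 and 1379 CPM inside and to 9.5, 18.4, 31.1 and 34.0 CPM outside. Of these, 5 of 7 neutrophil and 7 of 10 monocyte genes were tested and 0 were called, and Mpo and Elane were at 0 in all outside libraries and in inside graft 2. Because the samples are bulk, fewer cells with class II and less class II RNA per cell cannot be told apart.

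The promoters of the members are shown because 1 pair of motifs stands in H2-Eb1, with a large difference between the groups, and in H2-DMb1 and H2-DMb2, with small ones. The other members with a promoter entry, H2-Aa among them, did not hold this pair. RefSeq stretches of 300 bases (250 before to 50 after a start, GRCm38.p6) were found for 6 of the 9 members, and H2-Ab1, Cd74 and Ciita had no entry. The motifs were searched on both strands, after the sequences had been seen. They were AACNGATG (X-type, as bound by RFX), TGACGTCA (CRE-type, as bound by CREB) and GATTGG (Y-type, as bound by NF-Y). The windows below run from 130 to 16 bases upstream of the RefSeq start, 5′ to 3′ on the strand of the gene, and capitals mark a motif. H2-Aa is shown for its CRE-type and Y-type matches, H2-Eb1 for its X-type and Y-type matches, and H2-DMb2, a gene of the exchange factor, for the same pair as H2-Eb1.
H2-Aa (chr17:34287839-34287953, minus strand): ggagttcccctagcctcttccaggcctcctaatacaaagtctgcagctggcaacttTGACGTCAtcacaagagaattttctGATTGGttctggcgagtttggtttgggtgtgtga
H2-Eb1 (chr17:34305737-34305851, plus strand): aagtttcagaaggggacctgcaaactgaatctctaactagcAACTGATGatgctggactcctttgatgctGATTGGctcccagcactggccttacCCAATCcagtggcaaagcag
H2-DMb2 (chr17:34145119-34145233, plus strand): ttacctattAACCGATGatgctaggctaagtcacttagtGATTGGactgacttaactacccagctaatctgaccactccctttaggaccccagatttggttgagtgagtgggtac

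In H2-Eb1, the X-type letters began 89 bases and the Y-type letters 60 bases upstream of the start, with 21 bases between them. H2-DMb2 held the same pair at 121 and 91 bases with a gap of 22 bases, and H2-DMb1 at 92 and 62 bases, also with 22 bases between. In H2-DMb1 these letters lie inside the GENCODE M21 gene, which starts further upstream, at base 34153072. The H2-DMb2 window, from base 34145119, also lies inside the GENCODE gene, which starts at base 34143307. H2-Aa held the CRE-type letters at 74 bases and the Y-type letters at 49 bases. The promoter of H2-Oa held a Y-type match at 44 bases. Of the 2 entries of H2-DMa, 1 held a Y-type match at 199 bases and the other held none of the motifs. Both entries, from bases 34122582 and 34125268, lie inside the GENCODE gene, which starts at base 34119541. Of 32851 RefSeq promoters of the same length, 2.32% held the X-type, 1.79% the CRE-type and 16.1% the Y-type letters. An X-type match followed on the gene's strand within 25 bases by a Y-type match stood in 6 promoters (0.0183%), those of H2-Eb1, H2-DMb1, H2-DMb2, H2-Eb2, G3bp2 and BC051142. A match is a run of letters and shows no binding, and a window without one says nothing of the factor.

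Whether class II genes differ between microglia inside and outside the graft was asked first for the classical chains. H2-Aa, H2-Ab1 and H2-Eb1 were higher inside, by 8.61-fold to 12.8-fold in the group means, and the libraries of the groups did not overlap. H2-Aa, the alpha chain of the A molecule, was at 217, 820 and 812 CPM in inside grafts 1, 2 and 3 and at 66.9, 10.9, 75.4 and 38.8 CPM in outside grafts 1 to 4. Outside graft 2 was the lowest of the 4 and inside graft 1 lay well below the other inside libraries, as in H2-Ab1 and H2-Eb1. H2-Ab1, the beta chain that pairs with H2-Aa, was at 292, 1129 and 1094 CPM inside and at 156, 38.9, 116 and 78.0 CPM outside. H2-Eb1, the beta chain of the E molecule, was at 159, 479 and 566 CPM inside and at 49.1, 8.58, 46.6 and 33.4 CPM outside. No H2-Ea, the alpha chain gene of that molecule, was among the gene names counted, and H2-Ea-ps was at 0 in all libraries. The level of H2-Eb1 is therefore no measure of the E molecule. The lowest inside library was above the highest outside library by 2.88 times in H2-Aa, by 1.87 times in H2-Ab1 and by 3.25 times in H2-Eb1.

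The group means of H2-Aa were 616 ± 346 CPM (SD, n = 3) inside and 48.0 ± 29.3 CPM (SD, n = 4) outside, a log2 fold change of 3.58 (SE 0.60) with limma's voomWithQualityWeights (Benjamini-Hochberg adjusted P = 0.0374). The same test, which gives each library a weight, gave 2.98 (SE 0.50) for H2-Ab1 (adjusted P = 0.0374) and 3.44 (SE 0.55) for H2-Eb1 (adjusted P = 0.0367). With edgeR's quasi-likelihood test the fold changes were 3.68 (SE 0.61), 3.11 (SE 0.51) and 3.54 (SE 0.56) on the log2 scale, with Benjamini-Hochberg adjusted P of 0.0653, 0.0653 and 0.0589, short of the threshold of 0.05. The 3 chains therefore passed in 1 of the 2 tests.

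Cd74, the invariant chain, had the highest mean level of the 9 genes in both groups. It was at 833, 3660 and 3136 CPM in inside grafts 1 to 3 and at 429, 102, 325 and 183 CPM in outside grafts 1 to 4. The means were 2543 ± 1504 CPM (SD, n = 3) and 260 ± 146 CPM (SD, n = 4), without overlap, and the lowest inside library was 1.94 times the highest outside. The log2 fold change was 3.19 (SE 0.52) with voomWithQualityWeights (adjusted P = 0.0374) and 3.29 (SE 0.54) with edgeR (adjusted P = 0.0653). By mean CPM, Cd74 ranked 33rd of 15257 tested genes inside the graft and 554th outside.

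**Figure D1:**
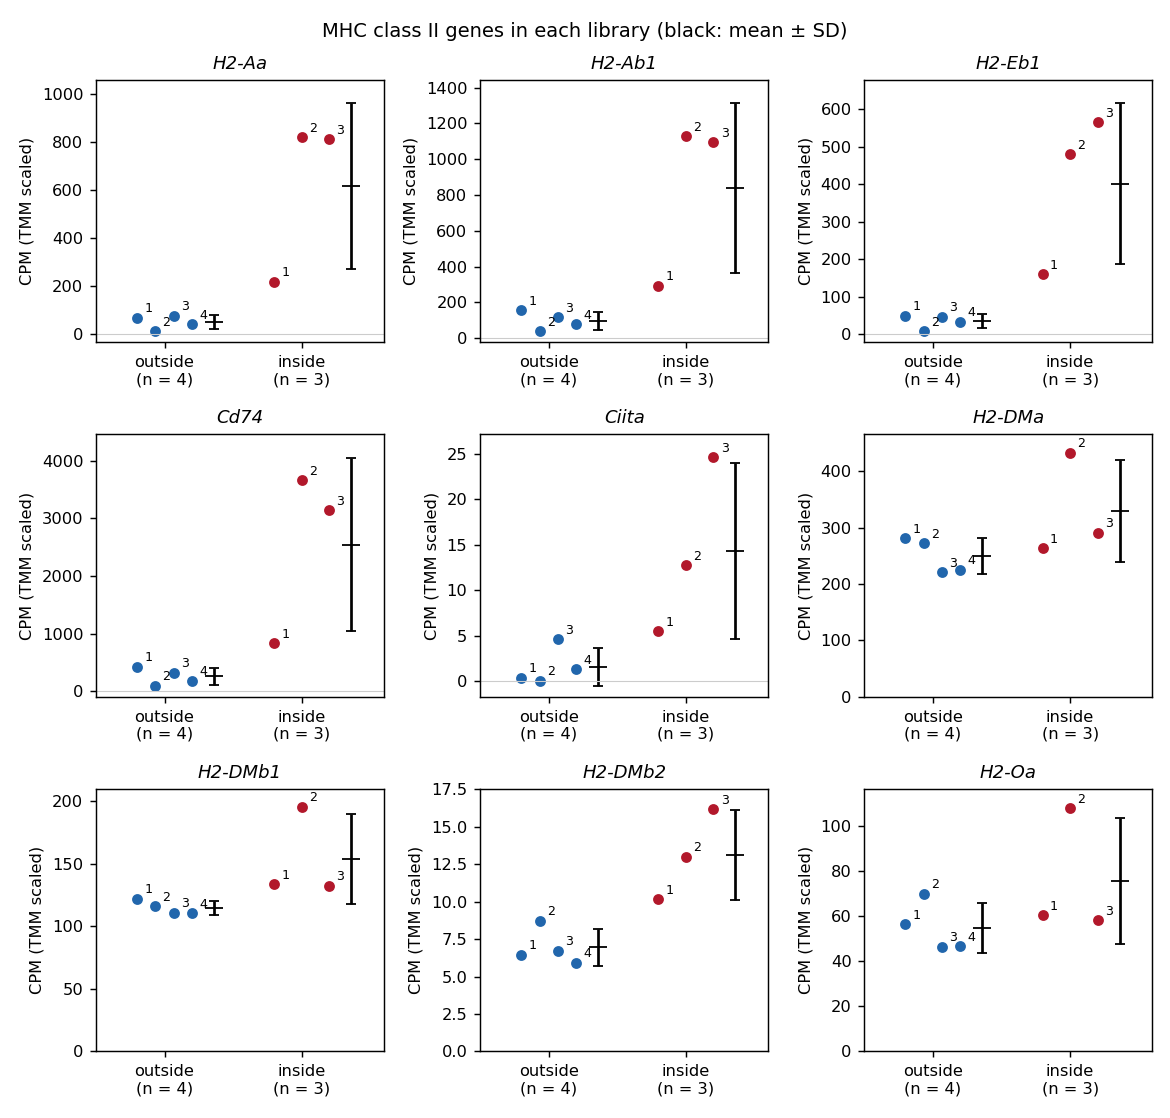
Level of the 9 class II genes in each library (TMM-normalized CPM, linear axes from 0), with 1 numbered point per library, inside in red and outside in blue, and the mean and SD in black. The 3 inside libraries of H2-Aa, H2-Ab1, H2-Eb1, Cd74 and Ciita lie above all 4 outside libraries, whereas the groups overlap in H2-DMa and H2-Oa.

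Of the 9 genes, 4 (H2-Aa, H2-Ab1, H2-Eb1 and Cd74) had an adjusted P below 0.05 with voomWithQualityWeights, all higher inside the graft, where 0.492% of all tested genes were called 0.433% as higher and 0.059% as lower. With edgeR 0 of 9 passed, against 0.0983% of all genes, while 8 of 9 had an unadjusted P below 0.05 (9.55% of all genes, and 9 of 9 against 12.2% with voomWithQualityWeights) and 4 of 9 passed with the DESeq2 Wald test, which called 2.75% of all genes. At the threshold of 0.01 that the study's methods give, 0 of the 9 passed in edgeR or voomWithQualityWeights, which called 0% and 0.0197% of all genes. In 7 of 9 genes, every inside library was above every outside library, which held for 5.65% of all tested genes, and the reverse order held for 5.02%. The median log2 fold change of the 9 genes was 3.11 with edgeR, and that of all tested genes was −0.01. The call with voomWithQualityWeights depended on single libraries: of the 4 genes, 0 passed without outside graft 3 or without outside graft 4, 1 passed without inside graft 3 (H2-Eb1), and 3 passed without outside graft 1 or without outside graft 2. In either of the settings that lost all 4 (outside graft 3 or 4 removed) the same test called 1 gene in all, against 75 with every library, and the log2 fold changes of H2-Aa were 4.27 and 3.88.

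Ciita, the co-activator of the other members, was a gene of low level. It had 139, 287 and 585 counts in inside grafts 1 to 3 (5.46, 12.7 and 24.6 CPM) and 7, 1, 114 and 32 counts in outside grafts 1 to 4 (0.374, 0.0445, 4.59 and 1.30 CPM). All inside libraries were above all outside libraries, but the lowest inside level was 1.19 times the highest outside level, and outside levels spanned 103 times. The log2 fold change was 3.16 (SE 1.00) with edgeR (adjusted P = 0.288) and 3.31 (SE 1.03) with voomWithQualityWeights (adjusted P = 0.199), so Ciita passed neither test. Outside graft 2 was lowest in Ciita as in the chains and Cd74, whereas inside graft 3 was highest in Ciita and inside graft 2 in H2-Aa, H2-Ab1 and Cd74.

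The genes of the peptide exchange factor H2-DM differed less. H2-DMa, its alpha chain, was at 263, 433 and 291 CPM inside and at 281, 273, 221 and 226 CPM outside, so the groups overlapped. Its log2 fold change was 0.40 with edgeR (95% interval 0.00 to 0.79, adjusted P = 0.516) and 0.43 with voomWithQualityWeights (adjusted P = 0.291). H2-DMb1, the main beta chain gene here, was at 134, 196 and 132 CPM inside and at 122, 116, 111 and 110 CPM outside. The groups did not overlap, but the lowest inside level was 1.08 times the highest outside level, and the log2 fold change of 0.42 with edgeR (95% interval 0.09 to 0.76) had an adjusted P of 0.356. H2-DMb2, the second beta chain gene, was at 10.2, 13.0 and 16.2 CPM inside and at 6.46, 8.72, 6.72 and 5.91 CPM outside. Its groups did not overlap either, with a log2 fold change of 0.92 (95% interval 0.31 to 1.52) and an edgeR adjusted P of 0.25. Of the stretches of 75 bases in their transcripts, 15.8% of those of H2-DMb1 and 16.2% of those of H2-DMb2 also occur in another gene, and reads from these were not counted.

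H2-Oa, the alpha chain of the H2-DM regulator H2-DO, was at 60.3, 108 and 58.1 CPM inside and at 56.4, 69.9, 46.3 and 46.5 CPM outside. The groups overlapped, and the log2 fold change was 0.46 with edgeR (95% interval −0.07 to 0.99, adjusted P = 0.595) and 0.49 with voomWithQualityWeights (adjusted P = 0.402). H2-Ob, the beta chain that pairs with H2-Oa and is not among the 9 genes, was at 84.9 ± 21.5 CPM (SD, n = 3) inside and 68.4 ± 12.4 CPM (SD, n = 4) outside, with a log2 fold change of 0.31 (SE 0.20, edgeR adjusted P = 0.702). Exons of H2-DMa and H2-Oa overlap those of Brd2 and BC051537 on the opposite strand, over 10.4% and 22.8% of their length, and the counting did not use strand.

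**Figure D2:**
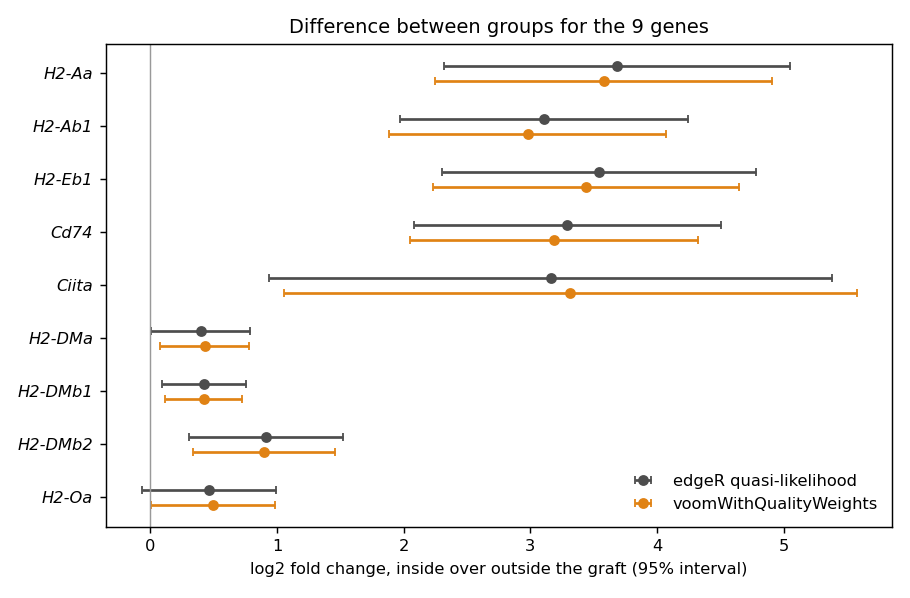
Log2 fold change of each class II gene, inside over outside the graft, with 95% intervals, from edgeR's quasi-likelihood test (grey) and voomWithQualityWeights (orange). The chains, Cd74 and Ciita lie at 2.98 or above, and H2-DMa, H2-DMb1, H2-DMb2 and H2-Oa lie below 1.

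The same genes were compared with one another as levels per exon length (RPKM, the CPM divided by the kilobases of exon). Inside the graft the order by mean was Cd74 (1510 ± 896 RPKM, SD, n = 3), H2-Ab1 (327), H2-Eb1 (207), H2-Aa (162), H2-DMa (95.4), H2-DMb1 (91.6), H2-Oa (53.6), H2-DMb2 (7.51) and Ciita (1.5). Outside it the order was Cd74 (155 ± 86.9 RPKM, SD, n = 4), H2-DMa (72.5), H2-DMb1 (68.3), H2-Oa (38.9), H2-Ab1 (37.9), H2-Eb1 (17.7), H2-Aa (12.6), H2-DMb2 (3.98) and Ciita (0.165). By these means, H2-DMa and H2-DMb1 stood above the chains outside the graft and below them inside. Inside, the neighbours H2-Aa and H2-DMa were in this order in 2 of 3 libraries, as were H2-DMa and H2-DMb1. Outside, Cd74 was above H2-DMa and H2-Aa above H2-DMb2 in 3 of 4 libraries each, and H2-DMa above H2-DMb1 and H2-Oa above H2-Ab1 in 2 of 4 each, so these neighbours were not separated by their spread.

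Ratios within a library put the chains and the exchange factor side by side without any scaling between libraries. The level of H2-Ab1 per length was 1.49 to 5.05 times that of H2-DMa inside and 0.192 to 0.745 times outside, a difference of 2.67 in mean log2 ratio. Cd74 over H2-DMa ran from 6.49 to 22.1 inside and from 0.766 to 3.13 outside, and H2-Aa over H2-DMa from 0.748 to 2.53 and from 0.0364 to 0.311. These 3 ratios did not overlap between the groups and reached the smallest P that 3 against 4 libraries allow (P = 0.0286, exact permutation test, two-sided), but with Benjamini-Hochberg adjustment over the 11 ratios tested the exact permutation P was 0.105. The ratios of H2-Aa and of Cd74 to H2-Ab1 did not overlap between the groups either, with smaller differences. H2-Aa over H2-Ab1 was 0.491 to 0.502 in the inside libraries and 0.19 to 0.438 in the outside libraries (exact permutation P = 0.0571, adjusted 0.126), and Cd74 over H2-Ab1 was 4.36 to 4.96 inside and 3.58 to 4.28 outside (exact permutation P = 0.0571, adjusted 0.126). The differences in mean log2 ratio were 0.73 and 0.19. H2-Eb1 over H2-Ab1 was 0.561 to 0.721 inside and 0.291 to 0.566 outside (exact permutation P = 0.143), with overlap. H2-Eb1 over H2-Aa was 1.14 to 1.44 inside and 1.21 to 1.68 outside (exact permutation P = 0.343), also with overlap. H2-DMa over H2-DMb1 was 0.96 to 1.08 inside and 0.972 to 1.15 outside (exact permutation P = 0.771). H2-Oa over H2-DMa was 0.489 to 0.61 and 0.491 to 0.628 (exact permutation P = 0.686).

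**Figure D3:**
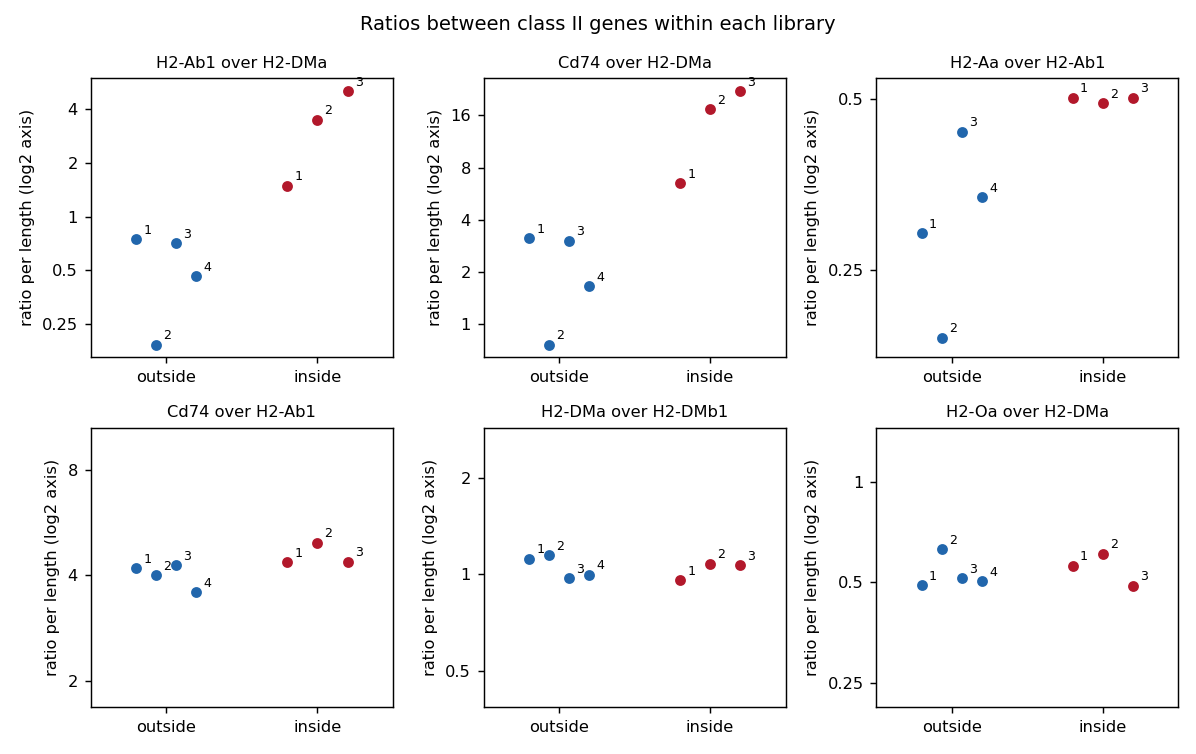
Ratios of class II genes per exon length (log2 axes), with 1 numbered point per library, inside in red and outside in blue. H2-Ab1 over H2-DMa lies at 1.49 to 5.05 inside and 0.192 to 0.745 outside, whereas the groups overlap for H2-DMa over H2-DMb1 and H2-Oa over H2-DMa.

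The class II genes also varied among libraries of one group. Outside the graft the highest library exceeded the lowest by 6.89 times in H2-Aa, 4.01 times in H2-Ab1, 5.72 times in H2-Eb1 and 4.21 times in Cd74, but by 1.27 times in H2-DMa, 1.11 times in H2-DMb1, 1.47 times in H2-DMb2 and 1.51 times in H2-Oa. The SD of log2 CPM among outside libraries was 1.27 in H2-Aa, larger than in 92.4% of 13143 genes, and 0.0682 in H2-DMb1, larger than in 3.04%. Inside, the highest library exceeded the lowest by 3.78, 3.86, 3.55 and 4.39 times in H2-Aa, H2-Ab1, H2-Eb1 and Cd74. The outside libraries came in 1 order, from 1 over 3 and 4 to 2, in Cd74, H2-Ab1 and H2-Eb1. The voomWithQualityWeights weights of the outside libraries were 0.448, 0.944, 1.71 and 1.76 in the order 1 to 4.

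Other genes of the pathway were counted from fixed lists. Among the 7 promoter-binding factors (RFX, NF-Y and CREB genes), 0 passed either test, and the largest fold change was that of Nfyb, an NF-Y subunit, at 0.53 on the log2 scale (SE 0.27, 23.3 against 16.1 CPM). Of 8 genes of interferon-gamma signalling 7 were tested and 0 passed. Ifng itself had 6 counts in inside graft 2 and 0 in the other libraries. Of 7 genes of antigen processing 0 passed, with the largest difference in Ctsb, the protease cathepsin B, at 5919 against 3996 CPM (log2 fold change 0.57, SE 0.16). H2-Eb2, another class II beta chain gene, had 52 counts in inside graft 3 and 2 in outside graft 1.

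Of the 3 genes that set how long class II stays at the surface, Cd83, which shields class II from the ligase March1, passed with voomWithQualityWeights. It was at 424, 513 and 399 CPM inside and at 278, 297, 192 and 249 CPM outside, a log2 fold change of 0.91 (SE 0.15, adjusted P = 0.0374), against 0.81 (SE 0.16) and an adjusted P of 0.0907 with edgeR. This call was lost without inside graft 1 and without outside graft 1, 3 or 4, with an adjusted P of up to 0.169, while the log2 fold change ran from 0.70 to 0.99 with each library left out. Of 4 costimulatory genes 0 passed. Cd40, which binds the CD40 ligand of T cells, was at 0.393, 9.28 and 2.91 CPM inside and at 0, 0.667, 0.966 and 1.17 CPM outside, with overlap. Of 5 genes for the role of CD74 as a receptor of MIF 0 passed. The largest fold change with edgeR was that of Cxcr2, a chemokine receptor of neutrophils, which was at 1.96, 0 and 11.5 CPM inside and at 0, 0, 0.563 and 0.162 CPM outside, with overlap. Cd44, the co-receptor of CD74, and the chemokine receptor Cxcr4 did not overlap between the groups and are named after their values were seen. Cd44 was at 17.9, 10.9 and 27.9 CPM inside and at 0.107, 1.957, 2.977 and 2.997 CPM outside, with a log2 fold change of 2.98 (SE 0.59) with voomWithQualityWeights (adjusted P = 0.0546) and an edgeR adjusted P of 0.109. Cxcr4 was at 3.45, 1.15 and 2.49 CPM inside and at 0.107, 0.534, 0.121 and 0.081 CPM outside, with a log2 fold change of 3.82 (SE 0.95) with voomWithQualityWeights (adjusted P = 0.105).

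Genomic neighbours of the members were read as well. From H2-Oa to H2-Eb1, 7 members lie on chromosome 17 between 34092340 and 34316674 (GRCm38). Cd74 lies on chromosome 18 (60803848 to 60812652) and Ciita on chromosome 16 (10480059 to 10528418). Among the members of the interval lie 13 other genes, of which 8 were tested and 0 passed either test. All 8 had a positive edgeR log2 fold change, with a median of 0.31 and a highest value of 0.61, and 2 had an unadjusted P below 0.05. The lowest was that of Brd2, at 0.000136 with 173 CPM in both groups. The highest was that of CR974462.4, an antisense RNA at 0.45 against 0.289 CPM (SE 1.18). With voomWithQualityWeights these 2 were negative, at −0.03 and −0.24. Each of the 8 edgeR fold changes was smaller than those of H2-Aa, H2-Ab1 and H2-Eb1.

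**Figure D4:**
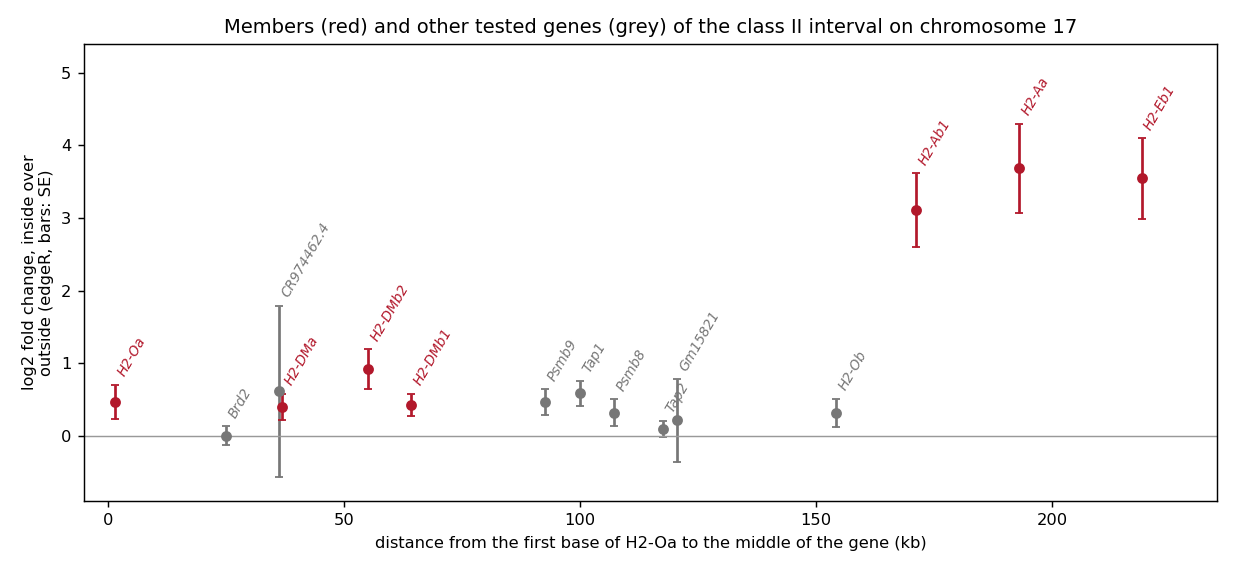
Log2 fold change (edgeR, inside over outside, bars for the SE) of the tested genes of the class II interval of chromosome 17 against their distance in kb from the start of H2-Oa, members in red and other genes in grey. H2-Ab1, H2-Aa and H2-Eb1 stand at 3.11 to 3.68, and the 8 other genes at 0.61 or below.

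The genes most like the 4 genes H2-Aa, H2-Ab1, H2-Eb1 and Cd74 over the 7 libraries were sought by the root mean square difference of centred log2 CPM from their mean profile. The 4 genes were 0.2 to 0.252 from it, but they make up the profile, so their distances cannot be set against those of other genes. The nearest 5 other genes were Iigp1 (0.754), C4b (0.784), Ifi211 (0.796), Tmem202 (0.847) and Oas3 (0.876), among 13134 genes compared. Iigp1, an interferon-induced GTPase, was at 16.8, 44.1 and 34.4 CPM inside and at 11.3, 3.91, 10.1 and 3.97 CPM outside. C4b, complement component 4, was at 40.7, 268 and 168 CPM inside and at 69.3, 14.9, 26.8 and 20.5 CPM outside. Ciita was at 1.37 and H2-DMa at 1.74 from the profile. The profile rests on 7 points and shares the group difference with many genes, so this is a description.

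Markers of other cells that carry class II or could enter the gate were set beside these values. Dendritic cell genes summed to 27.3, 18.1 and 30.3 CPM inside and to 7.74, 21.7, 25 and 24.0 CPM outside, with 4 of 8 tested and 0 called. Among them Ccr7 had 9.02 CPM in inside graft 3, 0.0534 CPM in outside graft 1 and 0 in the other libraries. B cell genes summed to 550 to 609 CPM inside and 605 to 670 CPM outside, nearly all from Ighm (551 CPM inside and 593 CPM outside in the mean), and Ms4a1 was at 0 in all libraries. Of 8 T and NK cell genes 0 passed the filter on low counts, and Cd3d and Ncr1 were at 0 in all libraries. The 8 genes summed to 2.39, 2.35 and 0.0421 CPM in inside grafts 1 to 3 and to 0.374, 0.489, 0.764 and 0.243 CPM in outside grafts 1 to 4. Cd4 was at 2.12 CPM in inside graft 1, and Cd3g at 0.976 and Trac at 0.222 CPM in inside graft 2. Klrb1c had a lower mean inside (0.24 CPM) than outside (0.342 CPM). Of the 8 tested genes of border-associated macrophages, which lie at the borders of the brain and can carry class II, 7 had a positive edgeR log2 fold change, with a median of 2.91, and Siglec1 passed with voomWithQualityWeights (24.1 ± 8.81 CPM inside, n = 3, 8.65 ± 6.22 CPM outside, n = 4, SD, adjusted P = 0.0398), a call lost without inside graft 1 or 3 and without outside graft 2, 3 or 4, with an adjusted P of up to 0.262 and a log2 fold change of 1.61 to 2.04 with each library left out. The sums of the 9 listed genes were 665, 414 and 675 CPM inside and 538 to 638 CPM outside, mostly from Stab1, which had a log2 fold change of −0.28 with edgeR and passed neither test. Without Stab1, left out after the values had been seen, the sums of the other 8 genes were 132, 35.1 and 156 CPM in inside grafts 1 to 3 and 35.8, 10.8, 15.7 and 22.1 CPM in outside grafts 1 to 4, so that inside graft 2 lay within the outside range and inside grafts 1 and 3 above it.

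These sums were compared with the class II genes library by library. The sum of H2-Aa, H2-Ab1, H2-Eb1 and Cd74 was 1501, 6088 and 5608 CPM in inside grafts 1 to 3 and 701, 160, 564 and 333 CPM in outside grafts 1 to 4. Inside graft 3, with a high class II sum, had the highest neutrophil, monocyte and border-associated macrophage sums. Inside graft 2, with the highest class II sum, had the lowest of these sums among the inside libraries, and inside graft 1, with the lowest class II sum of the 3, lay between them. All 3 inside libraries had higher neutrophil and monocyte sums than every outside library. The inside monocyte sums were mostly Chil3, at 587, 67.6 and 1189 CPM in inside grafts 1 to 3, against 0, 0, 15.0 and 1.38 CPM in outside grafts 1 to 4. Of the 7 tested monocyte genes, 5 had a positive edgeR log2 fold change. The inside neutrophil sums were mostly S100a8 and S100a9, and 5 of 5 tested neutrophil genes had a positive one. The part of neutrophils, monocytes and border-associated macrophages in the difference between the groups was not tested.

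**Figure D5:**
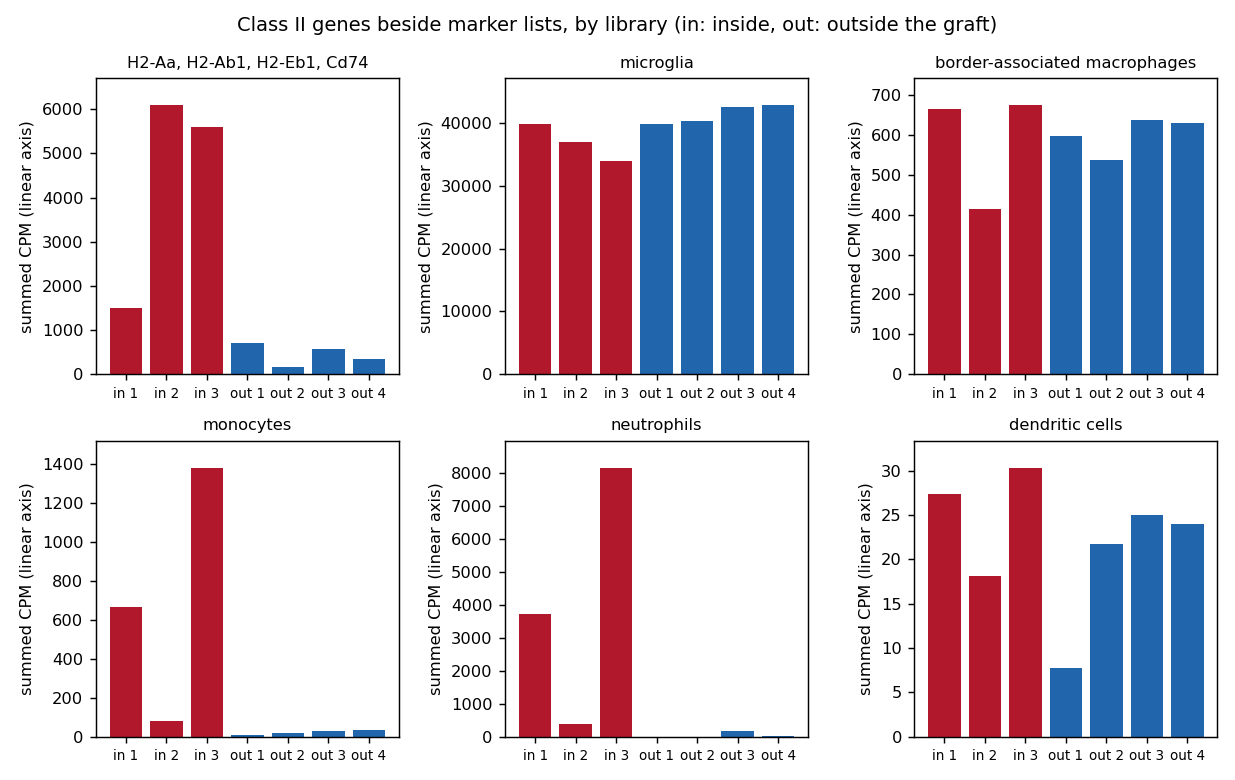
Summed CPM (bars, linear axes from 0) of H2-Aa, H2-Ab1, H2-Eb1 and Cd74 and of 5 marker lists in each library, inside in red and outside in blue. The neutrophil and monocyte sums are higher in the inside libraries, with inside graft 2 the lowest of the 3, and microglial genes are at 33976 to 42823 CPM in every library. The inside monocyte sums are mostly Chil3, and the inside neutrophil sums mostly S100a8 and S100a9. The border-associated macrophage sums are mostly Stab1.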

How the data were processed

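Microglia (CD11b+CD45low) of 5xFAD mice had been profiled by RNA-seq, 3 libraries from WT grafts and 4 from nearby cortex, which were grouped by their labels. The authors deposited raw counts per gene name, without normalization. They aligned 75-cycle single reads with STAR 2.7.2a to GRCm38.p6 and counted them with featureCounts 1.6.2 on GENCODE M21, without strand and leaving out reads that aligned to several places, which lowers genes with shared sequence. The cDNA was amplified and carried no molecular identifiers, so read totals overstate the number of molecules.

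From these counts, genes were filtered with filterByExpr and normalized by TMM, and CPM and RPKM (TMM CPM per kilobase of exon) were calculated in R 4.3.3. The tests were edgeR 4.0.16 (glmQLFit and glmQLFTest, legacy=TRUE), limma 3.58.1 (voomWithQualityWeights) and DESeq2 1.42.0, with Benjamini-Hochberg adjustment over all tested genes and a threshold of 0.05. Ratios were compared by exact permutation of the 7 libraries. Named genes beyond the 9 members were those of a list that passed either test or had the largest absolute edgeR fold change of their list at a mean of at least 1 CPM, and the 5 genes nearest the class II profile. Ccr7, H2-Eb2, Ighm, H2-Ob, Cd44, Cxcr4, Stab1, Ifng and genes at 0 (Mpo and Elane in part of the libraries) were named after their values were seen. So were Cd4, Cd3g, Trac, Klrb1c, S100a9, Brd2 and CR974462.4. The members and lists were chosen with earlier results of these data known. Alternatives were other normalizations, filters, thresholds and tests, each library left out, and the replicate number as a block. The scripts were tested on simulated data. Values of some listed genes are not reported here.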

Additional observations from a re-analysis of the deposited data

How the results depend on the processing

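All 9 genes kept a positive fold change under every alternative tried. The number of the 9 that edgeR called, 0, became 5 without a filter on low counts, 4 when each library had to hold 10 counts, 4 with legacy=FALSE and 4 with the DESeq2 Wald test, and ran from 0 to 2 with each library left out. The 4 called by voomWithQualityWeights became 1 without the filter, 0 at the threshold of 0.01 and 0 without quality weights, and ran from 0 to 4 with each library left out. Calls over all genes moved as well, with edgeR from 15 to 366 without the filter, 92 with at least 10 counts, 247 with legacy=FALSE and 420 with DESeq2, and with voomWithQualityWeights from 75 to 225, 211 and, without weights, 10. The cause was not tested. Requiring 10 counts or more of each library, which drops Ciita, brought the median log2 fold change of the members to 2.02, and leaving out each library gave 2.51 to 3.52. RLE, upper quartile and library size scaling left both counts of members as they were.

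The replicate numbers are shared between the groups without a stated pairing. Deviations of same-numbered libraries correlated at −0.048, 0.12 and 0.111. Inside grafts 2 and 3 correlated best with the outside graft of their own number, and inside graft 1 with outside graft 4 (0.071). The correlations were weak and the deviations were centred within each group, so they cannot decide whether the numbers pair the libraries. The main tests did not use the numbers. With the replicate block and without outside graft 4, edgeR called 0 and voomWithQualityWeights 4 of the 9 genes, the median log2 fold change was 3.03, and 43 and 265 genes were called in all.

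Outside the graft, Ciita had fewer counts than the other members, with 1 to 114 per library, and its level spanned 103 times between these libraries. The part of sequencing depth in the SE of its fold change was not tested. With 3 against 4 libraries, permutation P values cannot fall below 0.0286.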
